A study of Mus musculus with 12 samples.

Results

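Lrrc15, Fap, Cthrc1, C1qtnf3, Ecrg4, Prokr2 and Prss35 are 7 of the 55487 genes measured in fibroblasts sorted from mammary tumours, and they were picked by name, with earlier comparisons of these same libraries in view, as markers of NCAM-positive, matrix-type fibroblasts. Their levels in that population against the others therefore describe the choice and are given with no test. All tumours came from untreated FVB MMTV-PyMT mice aged 10 weeks, in which a mammary tumour virus promoter switches on polyoma middle T antigen, an oncogene, in the mammary epithelium, so every population carries the same genotype and no tumour-free tissue enters a comparison. Each of 3 mice (27, 30 and 31) gave 1 library of each of 4 populations, 12 libraries in all. All sorted cells were live and PDGFRb-positive and lacked CD45, CD31 and EPCAM. The m2cafpos cells were Ly6C-negative, CD146-negative, PDGFRa-positive and NCAM-positive; the m2cafneg cells passed the same gates but were NCAM-negative; the icaf cells were Ly6C-positive; and the vcaf cells were Ly6C-negative, CD146-positive and PDGFRa-negative. A library whose title spells the population "vacf" was read as vcaf of mouse 27.

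Tumours hold several kinds of fibroblast, and those that build collagen-rich stroma under transforming growth factor beta (TGF-beta) are often called myofibroblasts. Lrrc15, a leucine-rich repeat membrane protein, and Fap, a membrane protease that cleaves after proline, are widely used surface markers of fibroblasts in tumours. Cthrc1, a secreted glycoprotein with a short collagen repeat, marks matrix-producing fibroblasts in injured and fibrotic tissue. C1qtnf3 is a secreted member of the C1q/TNF family, Ecrg4 encodes the precursor of the peptide augurin, Prokr2 is a G protein-coupled receptor for prokineticins, and Prss35 is a secreted protein of the serine protease family that lacks the catalytic serine.

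All 7 are protein-coding genes and all passed the filter on low values (at least 1 CPM, counts per 1000000 reads assigned to genes, in at least 3 libraries), Prss35 only through m2cafpos, since 2 of the 9 other libraries reached 1 CPM for it. On GRCm38 with the GENCODE M21 annotation, Lrrc15 lies at chr16:30269302-30283256 on the minus strand, Fap at chr2:62500943-62574075 on the minus strand and Prokr2 at chr2:132337733-132385447 on the minus strand. Cthrc1 lies at chr15:39076932-39087121, C1qtnf3 at chr15:10952332-10980150, Ecrg4 at chr1:43730602-43742578 and Prss35 at chr9:86743649-86758443, each on the plus strand. Ecrg4 alone has an annotated gene across its span, the antisense gene Gm29155, which shares 0 exonic bases with it and reached at most 0.190 CPM in any library.

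RefSeq promoter sequences (GRCm38.p6, 250 bases before to 50 bases after the annotated start) were at hand for Lrrc15, C1qtnf3, Ecrg4, Prokr2 and Prss35. They were searched on both strands for AP-1 (TGANTCA), TEAD (GGAATG), RUNX (TGTGGT) and TATA box (TATAAA) letters, which belong to factor families active in fibroblasts and to the core promoter. The 3 promoters that held a match are given 5′ to 3′ along the gene, with the matches in capitals.
Lrrc15, chr16:30283205-30283504, minus strand: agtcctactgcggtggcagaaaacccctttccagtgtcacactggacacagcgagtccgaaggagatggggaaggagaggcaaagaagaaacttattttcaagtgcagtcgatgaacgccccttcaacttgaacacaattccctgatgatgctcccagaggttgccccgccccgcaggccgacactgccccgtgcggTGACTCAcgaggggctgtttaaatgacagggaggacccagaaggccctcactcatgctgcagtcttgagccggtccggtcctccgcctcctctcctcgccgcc
C1qtnf3, chr15:10952082-10952381, plus strand: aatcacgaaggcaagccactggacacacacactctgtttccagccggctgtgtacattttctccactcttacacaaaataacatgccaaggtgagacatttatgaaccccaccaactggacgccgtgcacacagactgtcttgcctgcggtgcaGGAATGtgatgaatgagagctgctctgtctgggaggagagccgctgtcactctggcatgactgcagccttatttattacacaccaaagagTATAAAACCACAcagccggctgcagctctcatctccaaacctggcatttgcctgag
Ecrg4, chr1:43730352-43730651, plus strand: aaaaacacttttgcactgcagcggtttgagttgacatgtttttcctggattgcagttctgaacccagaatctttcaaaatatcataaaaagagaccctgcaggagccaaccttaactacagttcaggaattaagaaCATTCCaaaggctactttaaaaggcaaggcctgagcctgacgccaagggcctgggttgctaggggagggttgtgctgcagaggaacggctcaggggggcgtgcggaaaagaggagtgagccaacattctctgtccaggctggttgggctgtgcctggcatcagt

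With the first base of the annotated start counted as 0, the AP-1 match of Lrrc15 began at -53. The TEAD match began at -96 in C1qtnf3 and, on the opposite strand, at -114 in Ecrg4. In C1qtnf3 a TATA box match at -6 adjoined a RUNX match on the opposite strand at 0. No motif was shared by more than 2 of these 5 promoters among these 4, and the share of all 32851 promoters of the table with a match was 7.81% for AP-1, 14.7% for TEAD, 16.8% for RUNX and 13.6% for the TATA box. Shorter motifs were more common: the E-box (CANNTG) occurred in 3 of the 5 promoters against 72.3% of all promoters, and the SMAD letters GTCTG in 2 of the 5 against 49.6%. These matches describe the letters in the window only.

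The libraries held 43898839 to 55363203 reads assigned to genes, so that a single read stood for 0.0181 to 0.0228 CPM. Ncam1, which encodes NCAM, averaged 585 ± 20.3 CPM in m2cafpos against 31.1 ± 5.63 CPM in m2cafneg, 96.5 ± 12.2 CPM in icaf and 18.2 ± 2.01 CPM in vcaf (SD, n = 3 each). Epcam, whose protein all sorted cells were gated to lack, averaged 73.7 ± 47.9 CPM in m2cafpos, 380 ± 124 CPM in m2cafneg, 71.3 ± 38.3 CPM in icaf and 546 ± 171 CPM in vcaf. Fibroblast markers (Col1a1, Col1a2, Col3a1, Dcn, Lum, Pdgfra and Pdgfrb) were detected in all 12 libraries, with summed levels of 146555 to 155451 CPM in m2cafpos, 74180 to 93726 CPM in m2cafneg, 70016 to 74653 CPM in icaf and 11893 to 14811 CPM in vcaf. RNA of other cell types differed between the populations. The 14 epithelial markers, all above 0, summed to 655 to 2847 CPM in m2cafpos, 5574 to 12044 CPM in m2cafneg, 1021 to 2986 CPM in icaf and 7685 to 15852 CPM in vcaf. The 10 macrophage markers summed to 145 to 230 CPM in m2cafpos, 576 to 940 CPM in m2cafneg, 89.2 to 207 CPM in icaf and 528 to 1312 CPM in vcaf. Pericyte markers were far higher in vcaf (34464 to 55993 CPM) than in m2cafpos (123 to 185 CPM), m2cafneg (129 to 503 CPM) or icaf (157 to 344 CPM). In bulk libraries such as these, fewer cells of a type and less RNA per cell cannot be told apart.

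Among the membrane proteins, Lrrc15 was graded over all 4 populations, Prokr2 was concentrated in m2cafpos, and Fap went against the label of an m2cafpos marker. Lrrc15 stood at 1798, 1216 and 1969 CPM in the m2cafpos libraries of mice 27, 30 and 31, against 905, 355 and 790 CPM in m2cafneg, 121, 65.6 and 153 CPM in icaf, and 21.9, 22.2 and 32.9 CPM in vcaf. No population overlapped another, and mouse 30 was the lowest of the 3 mice in m2cafpos, m2cafneg and icaf. The m2cafpos mean of 1661 ± 395 CPM was 2.43 times the m2cafneg mean of 684 ± 290 CPM, 14.7 times the icaf mean of 113 ± 44.4 CPM and 64.8 times the vcaf mean of 25.7 ± 6.25 CPM (SD, n = 3 each).

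Prokr2 was measured at 66.2, 54.9 and 64.4 CPM in m2cafpos (mice 27, 30 and 31), against 11.8, 2.02 and 16.4 CPM in m2cafneg, 1.23, 0.747 and 2.75 CPM in icaf, and 0.360, 0.370 and 0.804 CPM in vcaf. All m2cafpos libraries were above all others, whereas the m2cafneg library of mouse 30 lay below the highest icaf library, and icaf overlapped vcaf. The m2cafpos mean of 61.8 ± 6.05 CPM was 6.14 times that of m2cafneg (10.1 ± 7.35 CPM), 39.2 times that of icaf (1.58 ± 1.05 CPM) and 121 times that of vcaf (0.511 ± 0.253 CPM; SD, n = 3 each). The vcaf values rest on 18, 20 and 41 reads. The 3 m2cafpos libraries differed by 1.21 times from the lowest to the highest and the 3 m2cafneg libraries by 8.12 times.

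Fap had 120, 134 and 136 CPM in m2cafpos, against 155, 94.2 and 113 CPM in m2cafneg, 177, 228 and 179 CPM in icaf, and 57.9, 47.3 and 38.8 CPM in vcaf (mice 27, 30 and 31 in each). Every icaf library was above every other library, m2cafpos and m2cafneg overlapped, and every vcaf library was below the rest. The m2cafpos mean of 130 ± 8.79 CPM was 0.667 times the icaf mean of 195 ± 29.1 CPM, 1.08 times the m2cafneg mean of 121 ± 31.1 CPM and 2.70 times the vcaf mean of 48.0 ± 9.57 CPM (SD, n = 3 each). Fap transcripts were thus present in all 4 populations, and m2cafpos was not the highest of them.

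The secreted proteins split as well, with Cthrc1 shared by m2cafpos and icaf and the other 3 concentrated in m2cafpos. Cthrc1 was found at 498, 531 and 436 CPM in m2cafpos, against 139, 149 and 88.6 CPM in m2cafneg, 632, 380 and 420 CPM in icaf, and 6.59, 8.21 and 15.4 CPM in vcaf (mice 27, 30 and 31 in each). The m2cafpos and icaf libraries overlapped, with the highest value in an icaf library, while m2cafneg lay below both and vcaf below all. The m2cafpos mean of 488 ± 48.0 CPM was 1.02 times the icaf mean of 477 ± 136 CPM, 3.90 times the m2cafneg mean of 125 ± 32.2 CPM and 48.5 times the vcaf mean of 10.1 ± 4.68 CPM (SD, n = 3 each). Cthrc1 also goes against the label of an m2cafpos marker, and the 7 genes are called here by their names.

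C1qtnf3 reached 1219, 1828 and 1545 CPM in m2cafpos, against 113, 112 and 134 CPM in m2cafneg, 134, 128 and 160 CPM in icaf, and 9.57, 35.3 and 37.1 CPM in vcaf (mice 27, 30 and 31 in each). The lowest m2cafpos library was far above the highest of any other population, m2cafneg and icaf overlapped, and vcaf was lowest. The m2cafpos mean of 1531 ± 305 CPM was 12.8 times that of m2cafneg (120 ± 12.6 CPM), 10.9 times that of icaf (141 ± 17.3 CPM) and 56.0 times that of vcaf (27.3 ± 15.4 CPM; SD, n = 3 each). The vcaf library of mouse 27 stood well below the other vcaf libraries, the lowest and highest differing by 3.88 times.

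Ecrg4 stood at 169, 96.0 and 107 CPM in m2cafpos, against 23.4, 7.29 and 15.2 CPM in m2cafneg, 5.53, 3.40 and 6.38 CPM in icaf, and 14.7, 1.57 and 7.41 CPM in vcaf (mice 27, 30 and 31 in each). The m2cafpos libraries were apart from all others, and the vcaf libraries, which differed by 9.34 times among themselves, overlapped both m2cafneg and icaf. Mouse 27 was highest and mouse 30 lowest in m2cafpos, m2cafneg and vcaf. The m2cafpos mean of 124 ± 39.3 CPM was 8.11 times that of m2cafneg (15.3 ± 8.07 CPM), 24.3 times that of icaf (5.10 ± 1.53 CPM) and 15.7 times that of vcaf (7.88 ± 6.56 CPM; SD, n = 3 each).

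Prss35 had the lowest level of the 7 genes in m2cafpos and the widest spread there, with 20.6, 4.97 and 19.5 CPM in mice 27, 30 and 31, against 0.653, 0.675 and 0.513 CPM in m2cafneg, 1.03, 3.16 and 0.733 CPM in icaf, and 0.260, 0.0739 and 0.784 CPM in vcaf. All m2cafpos libraries were above all others, but that of mouse 30 lay close to the icaf library of the same mouse, which was the highest icaf library, and m2cafneg overlapped vcaf. The means were 15.0 ± 8.73 CPM in m2cafpos, 0.614 ± 0.0878 CPM in m2cafneg, 1.64 ± 1.33 CPM in icaf and 0.373 ± 0.368 CPM in vcaf (SD, n = 3 each). These rest on 1140, 268 and 858 reads in m2cafpos and on 4 to 161 reads in each other library.

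**Figure D1:**
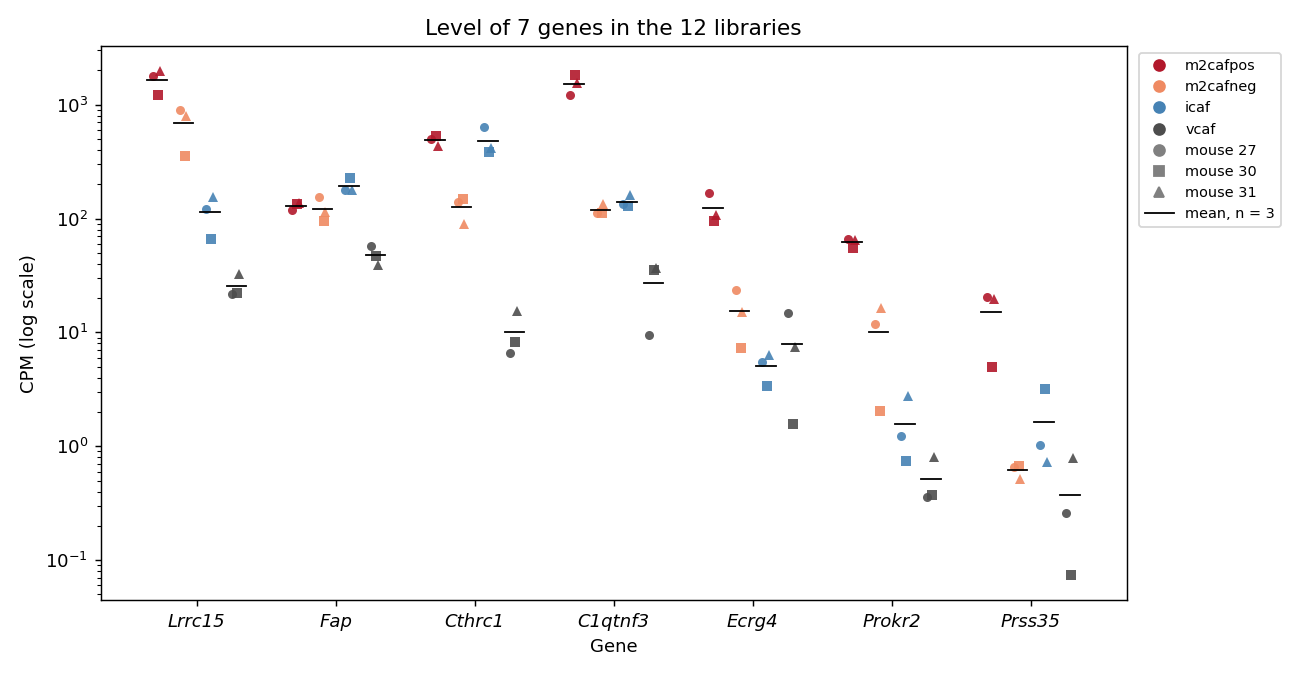
Level (CPM, log scale) of the 7 genes in each of the 12 libraries, coloured by population, with a marker shape per mouse and a bar at the mean of 3 libraries. The m2cafpos points stand above all others for Lrrc15, C1qtnf3, Ecrg4, Prokr2 and Prss35, while icaf is highest for Fap and overlaps m2cafpos for Cthrc1.

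Counted over the genes, every m2cafpos library was above every m2cafneg library for 6 of 7 (Fap being the exception), which held for 7.09% of the 15456 filtered genes. Every m2cafpos library was above every icaf library for 5 of 7, without Fap and Cthrc1, against 14.6% of filtered genes, and above every vcaf library for 7 of 7, against 13.9%. For 5 of 7 the m2cafpos libraries were above all 9 others, against 3.0% of filtered genes (463 genes). These counts follow from how the genes were picked and carry no test. The comparisons with m2cafneg, icaf and vcaf share the m2cafpos libraries.

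Within mice, the m2cafpos minus m2cafneg difference in log2(CPM + 1) of C1qtnf3 was 3.42, 4.01 and 3.51 in mice 27, 30 and 31, and that of Cthrc1 was 1.84, 1.83 and 2.29. For Lrrc15 it was 0.99, 1.77 and 1.32, for Ecrg4 2.80, 3.55 and 2.74, and for Prokr2 2.40, 4.21 and 1.91. The sign was positive in 3 of 3 mice for these 5 genes, and mouse 30 had the largest difference for 4 of them, Cthrc1 being the exception. Prss35 was the other way round, with 3.71 and 3.76 in mice 27 and 31 and 1.83 in mouse 30, and Fap had -0.37, 0.51 and 0.26. Against icaf, the Prss35 difference was 3.41 in mouse 27, 0.52 in mouse 30 and 3.57 in mouse 31, so the value of mouse 30 stood apart. Mouse 30 was the lowest m2cafpos library for 4 of the 7 genes (Lrrc15, Ecrg4, Prokr2 and Prss35).

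**Figure D2:**
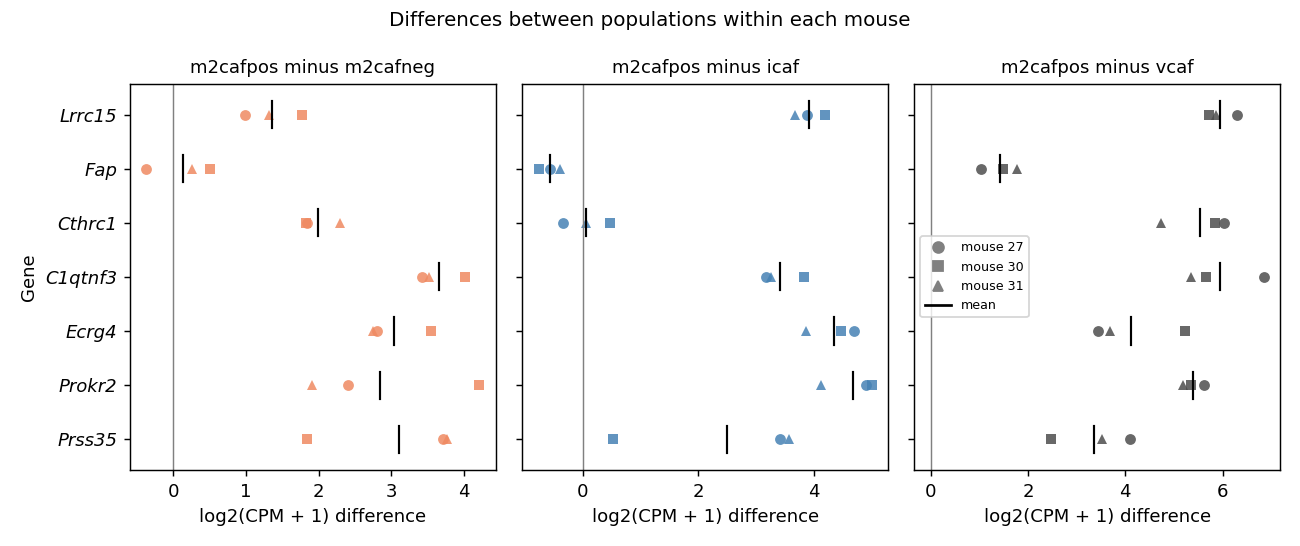
Differences in log2(CPM + 1) between m2cafpos and each other population of the same mouse (x axis) for the 7 genes (y axis), with a marker per mouse and a bar at the mean. Fap lies on both sides of 0 against m2cafneg and below 0 against icaf, Cthrc1 lies around 0 against icaf, and Prss35 in mouse 30 (0.52 against icaf) is far from mice 27 and 31.

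Scaled to exon length, which allows levels of different genes to be compared, C1qtnf3 led in m2cafpos with 599 ± 119 CPM per kb, rank 56 of 55227 genes with a length. Lrrc15 (313 ± 74.3 CPM per kb, rank 128), Cthrc1 (307 ± 30.1 CPM per kb, rank 133) and Ecrg4 (137 ± 43.6 CPM per kb, rank 341) followed (SD, n = 3 each). Fap at 22.9 ± 1.55 CPM per kb, Prokr2 at 7.81 ± 0.764 CPM per kb and Prss35 at 4.37 ± 2.54 CPM per kb were much lower. In icaf the order changed: Cthrc1 led with 300 ± 85.1 CPM per kb (rank 166), followed by C1qtnf3 with 55.0 ± 6.78 CPM per kb and Fap with 34.4 ± 5.14 CPM per kb. Exon length counted each exonic base of all annotated transcripts once, so a gene that uses a short transcript is understated.

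**Figure D3:**
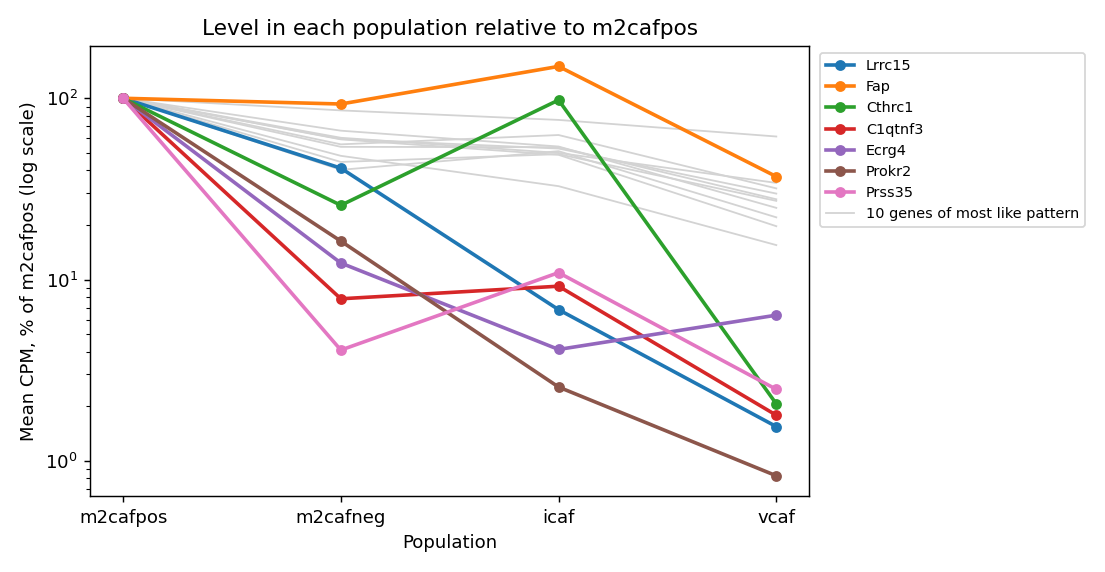
Mean CPM of each gene in the 4 populations as a percentage of its m2cafpos mean (log scale), n = 3 libraries per point, with the 10 genes of most like pattern in grey. Fap (150% in icaf) is above and Cthrc1 (97.8% in icaf) close to its m2cafpos mean in icaf, whereas Lrrc15 is at 41.2% in m2cafneg and 6.82% in icaf, and Prss35 at 4.08% in m2cafneg and 10.9% in icaf.

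Differences among m2cafneg, icaf and vcaf contain no m2cafpos value, and 6 of the 7 genes were tested there, Prss35 being given as values only because it passed the filter through m2cafpos. The filter and the spread were taken over all 12 libraries, m2cafpos included. With the m2cafpos libraries left out of both, an alternative added after the data were seen (15287 genes, limma), the calls of these 6 genes were the same, with 26.0% of all genes called in m2cafneg against icaf, 33.1% in m2cafneg against vcaf and 57.1% in icaf against vcaf. With all 12 libraries in limma over 15456 genes (two-sided, Benjamini-Hochberg adjusted p under 0.05), the genes took different directions between m2cafneg and icaf: Lrrc15 and Prokr2 were higher in m2cafneg, Fap and Cthrc1 were lower, and C1qtnf3 and Ecrg4 did not pass. That is 4 of 6 called, against 29.7% of all genes tested (20.9% higher and 8.77% lower). The Lrrc15 difference in log2(CPM + 1) was 2.56 (SE 0.36, limma adjusted p = 0.000317, higher in 3 of 3 mice), from means of 684 CPM in m2cafneg and 113 CPM in icaf. Prokr2 differed by 1.84 (SE 0.51, limma adjusted p = 0.0163). Cthrc1 fell by 1.92 (SE 0.28, limma adjusted p = 0.000369) and Fap by 0.71 (SE 0.18, limma adjusted p = 0.0124), each lower in m2cafneg in 3 of 3 mice. The directions were thus opposite for the membrane proteins Lrrc15 and Fap and held in every mouse. Ecrg4, at 1.32 (SE 0.55), had a limma adjusted p of 0.0931 and of 0.00574 with the mouse as a block. C1qtnf3 differed by -0.23 (SE 0.37, limma adjusted p = 0.689), and the Prss35 difference was -0.60.

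Markers of other cell types moved with this comparison. The summed epithelial markers of m2cafneg (5574 to 12044 CPM) and icaf (1021 to 2986 CPM) did not overlap, nor did the macrophage sums (576 to 940 CPM in m2cafneg, 89.2 to 207 CPM in icaf) or those of chondrocyte and osteoblast markers, led by Spp1 (2216 to 4858 CPM in m2cafneg, 199 to 898 CPM in icaf). In limma 13 of 14 epithelial, 9 of 9 macrophage and 5 of 5 chondrocyte and osteoblast markers past the filter were higher in m2cafneg. The rest of the chondrocyte and osteoblast list (Acan, Ibsp, Sp7 and Bglap) was below the filter, averaging at most 0.204 CPM in m2cafneg. Spp1 alone averaged 3119 CPM there, so that sum mainly follows Spp1 and does not show that such cells were present. The part of the macrophage and chondrocyte markers in the calls was not tested. With the log2 of the epithelial sum as a covariate, limma no longer called any of the 4 genes: Lrrc15 was at 1.51 (adjusted p = 0.0920), Prokr2 at 0.61 (adjusted p = 0.720), Cthrc1 at -1.70 (adjusted p = 0.0569) and Fap at -0.56 (adjusted p = 0.371). Most calls over all genes were lost too: that fit called 368 higher and 263 lower, against 3238 and 1356 without the covariate. Because the epithelial sums did not overlap, population and epithelial RNA cannot be told apart in that fit. In vcaf, where epithelial markers reached 7685 to 15852 CPM, Lrrc15 was at 21.9 to 32.9 CPM and Prokr2 at 0.360 to 0.804 CPM. Fap was at 38.8 to 57.9 CPM and Cthrc1 at 6.59 to 15.4 CPM there. Which cells the RNA of these genes came from was not tested. The Prokr2 call, which rests on the fewest reads of the 4, was lost under more settings than those of Lrrc15, Fap and Cthrc1. It was also lost without the m2cafneg library of mouse 27 (limma adjusted p = 0.0592) or of mouse 31 (0.0731), without the icaf library of mouse 27 (0.0539) or of mouse 30 (0.0668), and with no filter on low values (0.0604). The Fap call was lost without the icaf library of mouse 30 (limma adjusted p = 0.0577). The Ecrg4 difference passed without the m2cafneg library of mouse 30 (limma adjusted p = 0.0422) or the vcaf library of mouse 30 (0.0252).

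Against vcaf, the m2cafneg libraries were higher for 5 of the 6 genes and 1 did not pass, against 37.9% of all genes called (11.3% higher and 26.6% lower). Lrrc15 differed by 4.60 (SE 0.36, limma adjusted p = 8.96e-07), Cthrc1 by 3.56 (SE 0.28, limma adjusted p = 8.42e-07), Prokr2 by 2.55 (SE 0.51, limma adjusted p = 0.00207), C1qtnf3 by 2.30 (SE 0.37, limma adjusted p = 0.000463) and Fap by 1.30 (SE 0.18, limma adjusted p = 0.000150). Each was higher in m2cafneg in 3 of 3 mice. Ecrg4 differed by 1.09 (SE 0.55, limma adjusted p = 0.135, and 0.0143 with the mouse as a block), and without the vcaf library of mouse 27 its adjusted p was 0.0330. The Prss35 difference was 0.26. The epithelial sums of these populations overlapped. The pericyte sums did not, and CD146, on which vcaf cells were sorted, is encoded by the pericyte marker Mcam; the part of pericyte RNA in these differences was not tested.

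The icaf libraries were higher than vcaf for 4 of the 6 genes and 2 did not pass, against 59.9% of all genes called (13.9% higher and 46.1% lower). Cthrc1 differed by 5.48 (SE 0.28, limma adjusted p = 1.31e-08), C1qtnf3 by 2.53 (SE 0.37, limma adjusted p = 0.000115), Lrrc15 by 2.04 (SE 0.36, limma adjusted p = 0.000452) and Fap by 2.00 (SE 0.18, limma adjusted p = 2.17e-06). Of the low genes, Prokr2 differed by 0.71 (SE 0.51, limma adjusted p = 0.245), and the Prss35 difference was 0.87. Prokr2 passed the count tests on whole reads, where edgeR's quasi-likelihood test gave 2.03 (adjusted p = 0.0333) on its own log2 scale, which adds no 1 CPM. In limma, Prokr2 passed without the m2cafneg library of mouse 30 (adjusted p = 0.0358). Ecrg4 differed by -0.23 (SE 0.55, limma adjusted p = 0.742), a sign that turned to 0.12 with median-of-ratios scaling. The epithelial sums of icaf and vcaf did not overlap, so population and epithelial RNA cannot be told apart in a fit with that sum as a covariate. In that fit limma called Cthrc1 (5.22, adjusted p = 1.81e-05), Lrrc15 (3.27, 0.000691), Fap (1.83, 0.00207) and C1qtnf3 (3.03, 0.00636). The part of epithelial RNA in these differences was thus not tested. The pericyte sums (157 to 344 CPM in icaf, 34464 to 55993 CPM in vcaf) and the macrophage sums (89.2 to 207 CPM in icaf, 528 to 1312 CPM in vcaf) did not overlap either, and 8 of 8 pericyte and 9 of 9 macrophage markers past the filter were lower in icaf; their part in these differences was not tested.

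**Figure D4:**
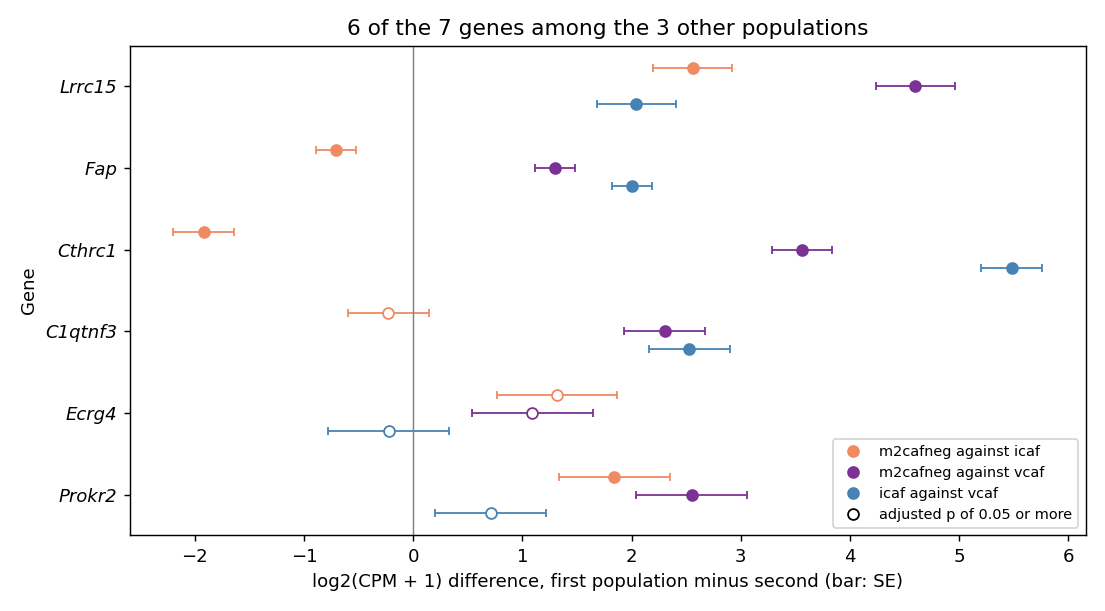
Differences in log2(CPM + 1) of the 6 genes tested (y axis) between m2cafneg and icaf, m2cafneg and vcaf, and icaf and vcaf, first minus second, with bars for the SE of the limma fit (3 libraries per population) and open points for adjusted p of 0.05 or more. Between m2cafneg and icaf, Lrrc15 (2.56) and Cthrc1 (-1.92) lie on opposite sides of 0.

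The genes around the 7 were described through lists of their programmes and partners. These lists were chosen with earlier results of these data known. Their counts and p-values therefore describe the lists and are no independent support for a programme. Of the TGF-beta-linked matrix genes of tumour fibroblasts, 11 of 19 tested rose in m2cafpos against m2cafneg, 1 fell and 7 did not pass, where 26.1% of all genes tested were called (3.51% rose and 22.6% fell). The list's median difference was 0.96, against -0.23 over all genes. Col12a1, a collagen that binds fibril surfaces, averaged 880 ± 182 CPM in m2cafpos against 194 ± 61.2 CPM in m2cafneg (log2 difference 2.21, SE 0.25, limma adjusted p = 0.000464). Adam12, a membrane metalloprotease, averaged 69.0 ± 3.55 CPM in m2cafpos against 19.1 ± 10.1 CPM in m2cafneg (1.91, SE 0.31, limma adjusted p = 0.00234). Aspn, a small leucine-rich proteoglycan, rose by 1.13 (SE 0.18, limma adjusted p = 0.00231) and Thbs2, a matricellular protein, by 0.99 (SE 0.17, limma adjusted p = 0.00272). Tgfbi was the member that fell, with a difference of -1.46 (SE 0.36, limma adjusted p = 0.0138), and the listed gene Grem1 was below the filter, averaging 0.358 CPM in m2cafpos. The epithelial and macrophage sums given above were lower in m2cafpos than in m2cafneg without overlap, and with the epithelial sum as a covariate 65 of all genes rose and 166 fell. In that fit 3 of the 19 matrix genes rose and 0 fell (11 and 1 at an unadjusted p under 0.05); edgeR called 12 higher and 0 lower, and DESeq2 13 higher and 1 lower. With the mouse as a block, limma called 15 higher and 1 lower.

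Against icaf, 12 of the 19 matrix genes rose in m2cafpos, 1 fell and 6 did not pass, where 23.9% of all genes were called (8.86% rose and 15.0% fell), with a median of 1.91 against -0.11 over all genes; with the mouse as a block 13 rose and 3 fell. Fn1 was the member that fell there (-1.10, SE 0.20, limma adjusted p = 0.00170), with 2715 ± 349 CPM in m2cafpos and 5785 ± 505 CPM in icaf. Against vcaf, 15 of 19 rose, 1 fell and 3 did not pass, where 67.9% of all genes were called (12.4% rose and 55.5% fell), with a median of 1.60 against -0.51. Between m2cafneg and icaf, 5 of the 19 were higher in m2cafneg, 4 were lower and 10 did not pass. Of all genes, 29.7% were called in that comparison (20.9% higher and 8.77% lower). With the epithelial covariate 2 of the 19 were higher and 2 lower. Without it, Postn, like Lrrc15, was higher in m2cafneg (1.43, SE 0.24, limma adjusted p = 0.00103). Fn1, like Cthrc1, was lower (-1.84, SE 0.20, limma adjusted p = 5.41e-05).

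Contractile genes were mostly higher in m2cafpos than in icaf, in part higher than in m2cafneg and mostly lower than in vcaf. Against m2cafneg, 7 of 15 rose, 1 fell and 7 did not pass, where 3.51% of all genes rose and 22.6% fell; Acta2, smooth muscle actin, averaged 218 ± 69.7 CPM in m2cafpos and 63.5 ± 34.5 CPM in m2cafneg (1.89, SE 0.42, limma adjusted p = 0.00863). Tpm2, a tropomyosin, rose by 0.97 (SE 0.17, limma adjusted p = 0.00301) and Tagln, an actin-binding protein, by 1.43 (SE 0.28, limma adjusted p = 0.00499) at a level of only 4.26 CPM in m2cafpos. Lmod1 was the member that fell (-1.31, SE 0.24, limma adjusted p = 0.00399). Against icaf, 9 of 15 rose, 1 fell and 5 did not pass, where 8.86% of all genes rose and 15.0% fell. Against vcaf, 1 rose (Palld, 1.78, SE 0.24, limma adjusted p = 5.77e-05), 12 fell and 2 did not pass, where 12.4% of all genes rose and 55.5% fell, and 9 fell with median-of-ratios scaling or the epithelial covariate. Acta2 was at 218 CPM in m2cafpos and 1921 CPM in vcaf. With that covariate 2 rose against m2cafneg. The medians of the list were 0.48 against m2cafneg, 0.87 against icaf and -2.34 against vcaf, beside -0.23, -0.11 and -0.51 over all genes.

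Adventitial genes, which mark fibroblasts around vessels and in fascia, were mostly lower in m2cafpos than in icaf. Against icaf, 9 of 12 fell in m2cafpos, 1 rose and 2 did not pass, where 8.86% of all genes rose and 15.0% fell, with a median of -2.86 against -0.11 over all genes. Cd34, a surface glycoprotein of such fibroblasts, averaged 210 ± 63.1 CPM in m2cafpos and 1879.9 ± 309 CPM in icaf (-3.18, SE 0.30, limma adjusted p = 1.20e-05). Against m2cafneg, 1 rose (Mfap5, 0.90, limma adjusted p = 0.0112), 4 fell and 7 did not pass, where 26.1% of all genes were called; 2 rose and 4 fell with the mouse as a block. Against vcaf, 9 rose, 2 fell and 1 did not pass, where 67.9% of all genes were called, and 5 rose and 2 fell with the epithelial covariate. Between icaf and vcaf, where 59.9% of all genes were called (13.9% higher), 11 of the 12 were higher in icaf, the population in which Fap was highest and Cthrc1 overlapped m2cafpos.

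**Figure D5:**
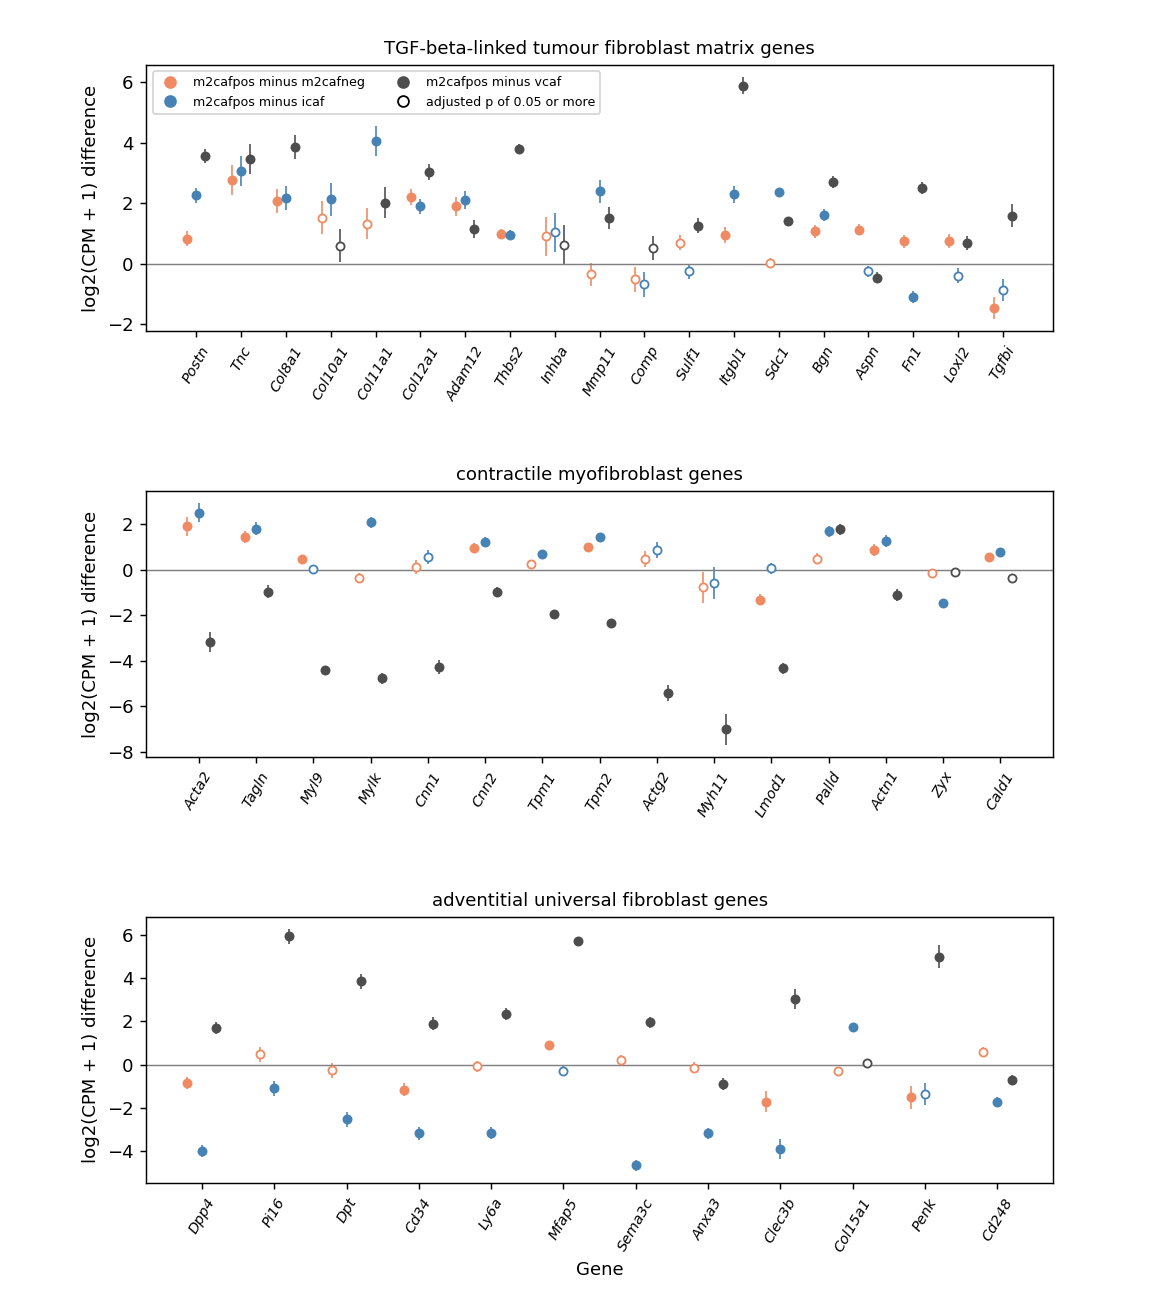
Differences in log2(CPM + 1) between m2cafpos and m2cafneg, icaf and vcaf for the matrix, contractile and adventitial genes that passed the filter, with bars for the SE of the limma fit (3 libraries per population) and open points for adjusted p of 0.05 or more. Matrix genes lie mostly above 0 in all 3 comparisons, contractile genes lie mostly below 0 against vcaf, and adventitial genes mostly below 0 against icaf.

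The splits of all genes depended on the scaling, because CPM divides by the library total. In m2cafpos against m2cafneg, 542 genes rose and 3499 fell, and with median-of-ratios scaling, which moves the median of all genes by 0.24, 1284 rose and 1319 fell. Against icaf these counts were 1370 and 2322, and 1781 and 1507 with that scaling (shift 0.11), and against vcaf 1915 and 8577, and 3594 and 3542 (shift 0.48). The surplus of genes that fell in m2cafpos was therefore much smaller, or absent, with that scaling. In m2cafneg against icaf 3238 rose and 1356 fell, and 2549 and 2083 with that scaling (shift -0.12). In m2cafneg against vcaf 1752 rose and 4109 fell, and 2406 and 1520 with it (0.24), and in icaf against vcaf 2147 and 7118, and 3746 and 3775 (0.37). Against m2cafneg under that scaling, 13 of the 19 matrix genes rose and 1 fell, and 8 of the 15 contractile genes rose and 1 fell. Of the 12 adventitial genes, 2 rose and 0 fell against m2cafneg under it in limma (3 and 3 at an unadjusted p under 0.05), while edgeR called 1 higher and 0 lower and DESeq2 2 higher and 1 lower.

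Partners of the single genes were followed through short lists. Prokr2 is known to bind the prokineticins Prok1 and Prok2, and neither ligand was detectable as a stromal transcript in m2cafpos: both had 0 reads in its 3 libraries, which allows up to 0.0542 to 0.0683 CPM per library by the limit of 3 reads. Prok1 averaged 0.0980 CPM in m2cafneg and 0.0950 CPM in vcaf, and Prok2 averaged 0.0261 CPM in vcaf. Prokr1, the second prokineticin receptor, was highest in icaf and, like Prokr2, higher on average in m2cafpos than in m2cafneg and vcaf. It had 1.40 ± 0.704 CPM in m2cafpos, 0.718 ± 0.700 CPM in m2cafneg, 4.74 ± 0.344 CPM in icaf and 0.352 ± 0.351 CPM in vcaf. The m2cafpos minus icaf difference was -1.30 (SE 0.29, limma adjusted p = 0.00640). Gnaq and Gna11, G protein subunits through which the receptors signal, had 113 ± 10.7 and 249 ± 10.3 CPM in m2cafpos. Neither count test called that Prokr1 difference: of the 4 listed genes past the filter, edgeR and DESeq2 called 0 against icaf, also at an unadjusted p under 0.05. Against m2cafneg, 0 of the 4 passed in limma (1 lower at an unadjusted p under 0.05) and 0 in edgeR, and DESeq2 called 1 higher.

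Dpp4, the closest relative of Fap, was also highest in icaf, and more steeply so than Fap. It averaged 24.1 ± 6.79 CPM in m2cafpos, 45.0 ± 15.3 CPM in m2cafneg, 400 ± 51.7 CPM in icaf and 6.94 ± 2.82 CPM in vcaf (SD, n = 3 each). The m2cafpos minus icaf difference was -4.02 (SE 0.28, limma adjusted p = 2.09e-06), where Fap had -0.57. Dpp6, a relative without protease activity, was the member of this list that rose against m2cafneg (1.37, SE 0.32, limma adjusted p = 0.00977), averaging 3.90 CPM in m2cafpos and 0.916 CPM in m2cafneg. Of 7 tested, 1 rose, 1 fell (Dpp4, -0.85, SE 0.28, limma adjusted p = 0.0397) and 5 did not pass, against 26.1% of all genes called. With the epithelial covariate limma called 0 of the 7 (1 higher and 1 lower at an unadjusted p under 0.05), and edgeR and DESeq2 called 0 of the 7 there (3 and 4 higher at an unadjusted p under 0.05). Mmp2 and Mmp14, metalloproteases that cleave collagens, had 4257 ± 480 and 1042 ± 235 CPM in m2cafpos and differed from m2cafneg by 0.06 and 0.31, neither past the test.

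Of the C1q/TNF relatives of C1qtnf3, 7 passed the filter; C1qtnf6 rose against m2cafneg, 4 fell and 2 did not pass, where 3.51% of all genes rose and 22.6% fell. C1qtnf6 averaged 665 ± 64.6 CPM in m2cafpos and 301 ± 60.6 CPM in m2cafneg (1.16, SE 0.16, limma adjusted p = 0.00137). The 4 that fell were C1qtnf7 (-0.94, SE 0.16, limma adjusted p = 0.00280), C1qtnf12 (-0.70), C1qtnf1 (-0.81) and C1qtnf9 (-1.74), and 1 of the 7 fell when libraries were scaled by median of ratios. With the epithelial covariate limma called 0 of the 7 (2 higher and 3 lower at an unadjusted p under 0.05), while edgeR called 1 higher and 1 lower, DESeq2 2 and 3, and limma with the mouse as a block 2 and 4. Against icaf, 4 of the 7 rose and 2 fell, where 8.86% of all genes rose and 15.0% fell. C1qtnf1, at 27.7 ± 0.386 CPM in m2cafpos and 198 ± 29.6 CPM in icaf, was one of those that fell (-2.78, SE 0.19, limma adjusted p = 1.77e-06).

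Cthrc1 is known in mice to act with Wnt5a and Ror2 in planar polarity signalling. Ror2 was the member of 6 tested that rose against m2cafneg, with 52.6 ± 5.96 CPM in m2cafpos and 38.0 ± 4.41 CPM in m2cafneg (0.46, SE 0.16, limma adjusted p = 0.0486), against 26.1% of all genes called, and with the mouse as a block 2 others fell. With the epithelial covariate limma called 0 of the 6 (1 higher and 1 lower at an unadjusted p under 0.05), and edgeR and DESeq2 each called 1 higher. Against icaf, where Cthrc1 itself differed by 0.06, Ror2 (1.34, SE 0.16, limma adjusted p = 5.65e-05), Fzd3 (1.49, SE 0.26, limma adjusted p = 0.00128) and Wnt5a (0.82, SE 0.28, limma adjusted p = 0.0496) rose. Of 7 relatives or partners of Prss35, Lrrc15 and Ecrg4, 1 rose against m2cafneg, 2 fell and 4 did not pass. Of all genes, 26.1% were called in that comparison (3.51% rose and 22.6% fell). With the epithelial covariate limma called 0 of these 7 (1 lower at an unadjusted p under 0.05), while edgeR, DESeq2 and limma with the mouse as a block each called 2 higher and 2 lower. Lrrc17 was the one that rose (0.87, SE 0.19, limma adjusted p = 0.00843), and Tlr4 and Cd14, receptor proteins with which augurin has been found on leukocytes, fell (-0.88, SE 0.20, limma adjusted p = 0.00816, and -2.37, SE 0.50, limma adjusted p = 0.00690). Cd14 is also on the macrophage list, whose sums were higher in m2cafneg; the part of these cells in its difference was not tested. Prss23, the nearest relative of Prss35, averaged 131 ± 41.4 CPM in m2cafpos, 107 ± 24.5 CPM in m2cafneg, 287 ± 91.7 CPM in icaf and 138 ± 26.4 CPM in vcaf.

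Of 12 ligands, receptors and transducers of TGF-beta, 2 rose in m2cafpos against m2cafneg, 2 fell and 8 did not pass, with a median of -0.04; this share is near the 26.1% of all genes called. With the epithelial covariate limma called 0 of the 12 (1 higher and 1 lower at an unadjusted p under 0.05), while edgeR called 2 higher and DESeq2 3 higher and 1 lower. Tgfb3, the most abundant of the 3 ligands, rose (0.69, SE 0.23, limma adjusted p = 0.0435), with 416 ± 27.3 CPM in m2cafpos and 266 ± 87.4 CPM in m2cafneg. The co-receptor Tgfbr3 (-0.73, SE 0.17, limma adjusted p = 0.0104) and Tgfb2 (-1.10, SE 0.31, limma adjusted p = 0.0240) fell, and with median-of-ratios scaling 3 rose and 0 fell in limma (4 and 2 at an unadjusted p under 0.05).

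Over the 12 libraries, the genes whose log2(CPM + 1) profile was most like the mean of the 7 (Pearson's r, out of 9809 genes with at least 10 CPM in some population) were Sparc at 0.982, Ppic at 0.982, Fkbp10 at 0.968, Bgn at 0.963, Ptprs and Tfpi2 at 0.962, Akr1b8 at 0.961, Tnfrsf23 and Col5a2 at 0.960, and Arfgap1 at 0.958. Sparc, a collagen-binding matricellular protein, averaged 25999 ± 2260 CPM in m2cafpos, 14025 ± 1353 CPM in m2cafneg, 13960 ± 538 CPM in icaf and 7207 ± 212 CPM in vcaf. Single genes had other neighbours. Lrrc15 ran with Prss30 (0.995) and Postn (0.992), Fap with Csf1 (0.978) and Tmem45a (0.968), and Cthrc1 with Serpina3e-ps (0.989) and Fbln2 (0.987). C1qtnf3 ran with Tnfrsf23 (0.980) and Adamts6 (0.967), Ecrg4 with Ddah1 (0.964) and Klhl30 (0.948), Prokr2 with Dio3 (0.987) and Tnn (0.982), and Prss35 with Ncam1 (0.910) and C1qtnf6 (0.910). Dio3, which inactivates thyroid hormone, had 17.99 ± 1.56 CPM in m2cafpos, 3.74 ± 2.51 CPM in m2cafneg, 1.47 ± 0.698 CPM in icaf and 0.158 ± 0.157 CPM in vcaf. Csf1, the macrophage growth factor, had 373 ± 7.27 CPM in m2cafpos, 332 ± 77.1 CPM in m2cafneg, 705 ± 87.2 CPM in icaf and 65.5 ± 7.79 CPM in vcaf.

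Among the 7 genes themselves, the highest r were those of Lrrc15 with Prokr2 (0.934), Ecrg4 with Prokr2 (0.920) and Fap with Cthrc1 (0.885), and the lowest was that of Fap with Ecrg4 (0.203). These r describe 12 libraries that share mice, gates and library totals and fall into 4 populations, so no p is given. Fap and Cthrc1 thus formed a pair with high levels in icaf, and Lrrc15, Prokr2 and Ecrg4 were lower in icaf than in m2cafneg on average.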

How the data were processed

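Sorted tumour fibroblasts of 3 mice were profiled by RNA-seq, with 1 library per population and mouse. The authors deposited 1 table of CPM (counts per 1000000 reads assigned to genes). The tools named, per the submitters' processing notes, are bcl2fastq and DRAGEN, and the build is mm10; library kit, strand handling and annotation release were not given in the sources used here. Of 55774 lines, 287 repeated an identifier with the same values, leaving 55487 genes. Every deposited value was a whole multiple of 1 read within 0.001 reads (100% of values), so reads were recovered; limits for 0 reads (3 reads) cover counting error only.

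The 15456 genes reaching 1 CPM in 3 or more libraries were compared as log2(CPM + 1), which understates changes of low genes, with limma 3.58.1 in R 4.3.3 (trend, two-sided, 12 libraries in 4 populations, Benjamini-Hochberg over all tested genes, 0.05). Alternatives were edgeR 4.0.16 and DESeq2 1.42.0 on the recovered reads, other scalings, added values of 0.1 and 5 CPM, no filter, an epithelial covariate, a mouse block, leaving out each library and, added after the data were seen, leaving out m2cafpos. The scripts were tested on simulated data. Median-of-ratios scaling divides by each library's median ratio to a common profile.

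The 7 genes, the lists and the naming rule were chosen with earlier results of these data known. Named genes were the 7, the sorting genes, up to 4 genes per list with the smallest adjusted p in m2cafpos against m2cafneg, relatives and partners, and the genes of most like profile (the top 10 for the mean, the top 2 for each gene, leaving out gene models known by a number). Acta2, Fn1, Postn, Tgfbi, Palld and members named for other comparisons were outside that rule and were picked after their values were seen. Cd34, Mfap5 and Tgfb3 were also picked after their values were seen, though the rule names them too. A gene that the rule named is not reported here.

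Mouse numbers were taken as animals. Deviations from population means correlated between libraries of the same mouse with a median r of 0.293 (0.0843 to 0.452, 17 of 18 pairs over 0.1), and of different mice with a median of -0.149 (36 pairs, at most 0.0746). P-values measure the spread between these mice.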

Additional observations from a re-analysis of the deposited data

How the results depend on the processing

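Of 18 differences of 6 genes among m2cafneg, icaf and vcaf, 11 kept their side of the threshold and their direction where called under all 22 settings, and 7 changed, 10 times losing and 8 times gaining a call; no called difference changed sign. The mouse (replicate block) gained Ecrg4 in m2cafneg against icaf (adjusted p = 0.00574) and against vcaf (0.0143) and changed no other call of the 6. The vcaf values of Prokr2 and Prss35 rest on few reads, 4 to 41 in each library. The cause was not tested for the changed calls or for other counts.

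Counts of all genes moved as follows, higher and then lower. In m2cafpos against m2cafneg (542 and 3499) they were 1284 and 1319 with median-of-ratios scaling, 1167 and 1414 with TMM, 65 and 166 with the epithelial covariate, 952 and 1136 in edgeR, and 1516 and 1617 in DESeq2, with 2231 lower without a filter. Against icaf the lower count (2322) was 1507 with median-of-ratios scaling and 1424 in edgeR. In m2cafpos against vcaf (1915 and 8577) they were 3594 and 3542, 3464 and 3700, 1104 and 3411, 3448 and 3465, and 3740 and 3620 in the same order of settings. In m2cafneg against icaf (3238 and 1356) the covariate gave 368 and 263, and the lower count was 2083 with median-of-ratios scaling and 2256 in DESeq2. In m2cafneg against vcaf the lower count (4109) was 1520 with median-of-ratios scaling, 1515 with TMM, 1331 in edgeR and 1600 in DESeq2. In icaf against vcaf (2147 and 7118) they were 3746 and 3775, 3682 and 3848, 1063 and 2300 (covariate), 3604 and 3693, and 3836 and 3896.

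Leaving out each library gave 311 to 564 higher and 1942 to 3654 lower in m2cafpos against m2cafneg, 1036 to 1413 and 1619 to 2437 against icaf, and 1735 to 1950 and 7764 to 8653 against vcaf. Of these, the higher count against m2cafneg was 311, 360 and 361 without the m2cafpos library of mouse 27, 30 or 31 and 358 without the m2cafneg library of mouse 30, and the lower count was 1942 and 2240 without the m2cafpos library of mouse 27 or 30 and 1996 without the m2cafneg library of mouse 31. It gave 2166 to 3352 and 970 to 1421 in m2cafneg against icaf, 1526 to 1723 and 2888 to 4370 in m2cafneg against vcaf, and 1928 to 2195 and 6257 to 7191 in icaf against vcaf.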
